A study of Homo sapiens with 6 samples.

Results

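The SR splicing factors are a family of RNA-binding proteins that bind exonic enhancer sequences in pre-mRNA and recruit the spliceosome to nearby splice sites. Each carries an RNA recognition motif and a tail rich in arginine and serine, and phosphorylation of that tail controls where the protein goes and what it binds. The 10 genes described here are SRSF1, SRSF2, SRSF3, SRSF4, SRSF5, SRSF6, SRSF7, SRSF9, SRSF10 and SRSF11. They were chosen by symbol, each symbol matched 1 Ensembl gene, and they are 10 of the 58302 genes counted in each library. RNA was sequenced from cells labelled MDA-MB-231, a human breast cancer cell line of mesenchymal or basal type, and marker genes that go against this label are given below. The cells expressed a control shRNA in 3 libraries (control repeats 1 to 3) and Smyca shRNA #1 in the other 3 (Smyca knockdown repeats 1 to 3). Smyca is a long noncoding RNA, annotated as MIR23AHG. The comparison asks which transcripts differ when Smyca is depleted. Only shRNA #1 was sequenced, so an effect of this shRNA and an effect of losing Smyca cannot be told apart. The study calls the repeats biological, but neither its text nor the labels say whether they were separate cultures or transductions, and p-values measure only the spread between these libraries. In bulk RNA, fewer cells of a type and less RNA per cell cannot be told apart.

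Many SR genes limit their own output by splicing in a "poison" exon that carries a premature stop, so that the transcript is degraded by nonsense-mediated decay. GENCODE release 44 lists at least 1 transcript of this decay class for each of the 10 genes, from 1 for SRSF5 and SRSF6 to 6 for SRSF7. The counts were made per gene, so a library's count for a member adds the coding transcript and any poison-exon transcript and cannot separate them. An exon that lies inside an intron of the canonical transcript and holds the stop of a decay transcript was found for SRSF3, SRSF4, SRSF6, SRSF7, SRSF9 and SRSF11. The sequences below show 1 such exon for each of 5 genes, because they are the part of the transcript that a gene-level count hides. Each runs 5′ to 3′ on the transcript's strand in GRCh38, from the first base of the exon to the stop codon, which is in capitals. The SRSF3 stretch is chr6:36599821-36599854 on the plus strand, in a 456-base exon of intron 3. For SRSF4 it is chr1:29166009-29166064 on the minus strand, in a 175-base exon of intron 1. The SRSF6 stretch is chr20:43459153-43459304 on the plus strand, in a 268-base exon of intron 2. For SRSF7 it is chr2:38749319-38749346 on the minus strand, in a 449-base exon of intron 3, and for SRSF11 chr1:70231095-70231117 on the plus strand, in a 109-base exon of intron 2.
SRSF3: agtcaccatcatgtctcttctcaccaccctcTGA
SRSF4: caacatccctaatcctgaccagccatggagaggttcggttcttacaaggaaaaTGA
SRSF6: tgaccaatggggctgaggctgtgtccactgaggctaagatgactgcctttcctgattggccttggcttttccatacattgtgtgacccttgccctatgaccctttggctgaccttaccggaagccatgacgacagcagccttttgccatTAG
SRSF7: gtttcttcgtttgagtcagtcgcctTGA
SRSF11: ttcttttccctggttcagccTGA

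Total counts lay between 14999307 and 16501085 per library, and each member had at least 1603 counts in every library. At the lowest count of each member, counting error alone gives a coefficient of variation of 1.29% to 2.5%. Between repeats the coefficient of variation beyond counting was far larger, at 25.2% over all genes, so the spread between repeats and not depth limits what follows. Levels are given as normalized CPM, in which counts are scaled to a library size adjusted by the TMM method. MIR23AHG, the gene of Smyca, was at 25, 19.5 and 22 normalized CPM in the control and 10.5, 6.97 and 5.61 in the Smyca knockdown. The groups did not overlap, with a log2 fold change of control over knockdown of 1.53 ± 0.26 (SE, n = 3 and 3) and an adjusted p of 0.111 (edgeR). Log2 fold changes are given throughout as control over Smyca knockdown, so a negative value means a lower level in the control.

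3 features of the libraries touch the results below. Control repeat 3 stood apart from the other control repeats. Between control repeats 1 and 2 the pairwise coefficient of variation was 13.5%, but it was 35.1% between repeats 1 and 3 and 30.9% between repeats 2 and 3. Knockdown repeat 3 also lay apart, at 26.4% and 23.7% from knockdown repeats 1 and 2, which differed by 14.3%. For control repeat 2, the deposited FPKM values do not follow the deposited counts, with 3357 genes at 0 counts and an FPKM above 0. The reads recovered from that FPKM column differed from the counts of control repeat 3 by a coefficient of variation of 3.85%, and from the counts of control repeat 2 by 31.0%. They differed from control repeat 1 by 35.1%, so with these reads control repeat 1 would be the library apart. The 3.85% is below the 13.5% of the closest pair of libraries by counts. A fit with these reads thus holds 2 nearly alike control libraries, which may not be independent, and its p-values may understate the spread. The third feature is the cell identity. Of the 10 mesenchymal or basal markers for which MDA-MB-231 is known, 9 passed the filter on low counts, with MSN at 341 to 767, FOSL1 at 81.5 to 255 and VIM at 71.2 to 305 normalized CPM. SPARC had at most 11 counts. Of the epithelial genes, EPCAM lay at 236 to 336, CDH1 at 71.5 to 300 and KRT8 at 4249 to 7408 normalized CPM, and GRHL2 had at most 17 counts. Of the 11 intestinal markers, VIL1 and HNF4A lay at 220.5 to 501 and 65.4 to 194, and MUC13 at 9.09 to 37.8. In the same list CDX1 had 0 counts, FABP1 at most 3, KRT20 and GPA33 at most 6 and LGALS4 at most 21. Of the luminal breast list, ESR1 and PGR had at most 3 counts and 0 counts, whereas KRT18 (987 to 1379), KRT19 (849.8 to 1957), XBP1 (101 to 172) and ERBB2 (46.7 to 72.2) were expressed. Of the hepatic list, AFP, APOB, TTR and FGB were at 0 and SERPINA1 lay at 26.3 to 74.2. The levels of CDH1, EPCAM, KRT8, VIL1 and HNF4A and the low SPARC go against the label MDA-MB-231. The mesenchymal or basal markers MSN, FOSL1 and VIM were expressed, but VIM lay far below KRT8 in every library. Lower still in the same list were CD44 (9.31 to 37.2), AXL (18.1 to 51.1) and ZEB1 (6.22 to 12.9). The cells are called here by their label. The 10 mesenchymal or basal markers summed to 799 to 1646 normalized CPM in the control and 781 to 1117 in the Smyca knockdown. All 9 of them that could be tested were higher in the control, and 0 passed the adjusted threshold. An unadjusted edgeR p under 0.05 with a higher control was found for 7, against 10.4% of all genes. The groups did not overlap, with a higher control, for 3, against 12.4% of all genes. The 11 intestinal markers summed to 338 to 611 in the control and 693 to 819 in the knockdown, and VIL1 and HNF4A made up most of each sum. Of the 7 intestinal markers tested, 2 were higher and 5 lower in the control and 0 passed the adjusted threshold. The groups did not overlap for 2 with a lower control and 1 with a higher control, against 12.5% and 12.4% of all genes, and HNF4A overlapped. The part of these markers in the SR results was not tested.

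None of the 10 SR genes passed an adjusted p of 0.05 by the quasi-likelihood test of edgeR, where 0.0265% of the 15075 genes tested passed. At an unadjusted p under 0.05 there was 1 member, SRSF1, against 19.2% of all genes. DESeq2 called the same gene at an adjusted p under 0.05, as it did 6.31% of all genes. Split by direction, the unadjusted edgeR p was under 0.05 with a lower control for 1 member and 8.74% of all genes, and with a higher control for 0 members and 10.4%. SRSF1 was also the 1 member whose control and knockdown libraries did not overlap, against 24.8% of all genes in either direction and 12.5% in the direction of a lower control. By fold change, 5 members were higher and 5 lower in the control, where 53.4% of all genes were higher, and the median log2 fold change was -0.007 over the members and 0.036 over all genes. Without control repeat 3 these medians were -0.23 and 0.0076, and with the FPKM reads of control repeat 2 they were 0.14 and 0.028. Summed over the 10 genes, the family was at 1851, 1899 and 2745 normalized CPM in the control and 2333, 2413 and 1985 in the Smyca knockdown. The means were 2165 ± 503 and 2243 ± 227 (SD, n = 3), and control repeat 3 held the highest sum of the 6 libraries. The family took between 0.182% and 0.286% of all counts.

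**Figure D1:**
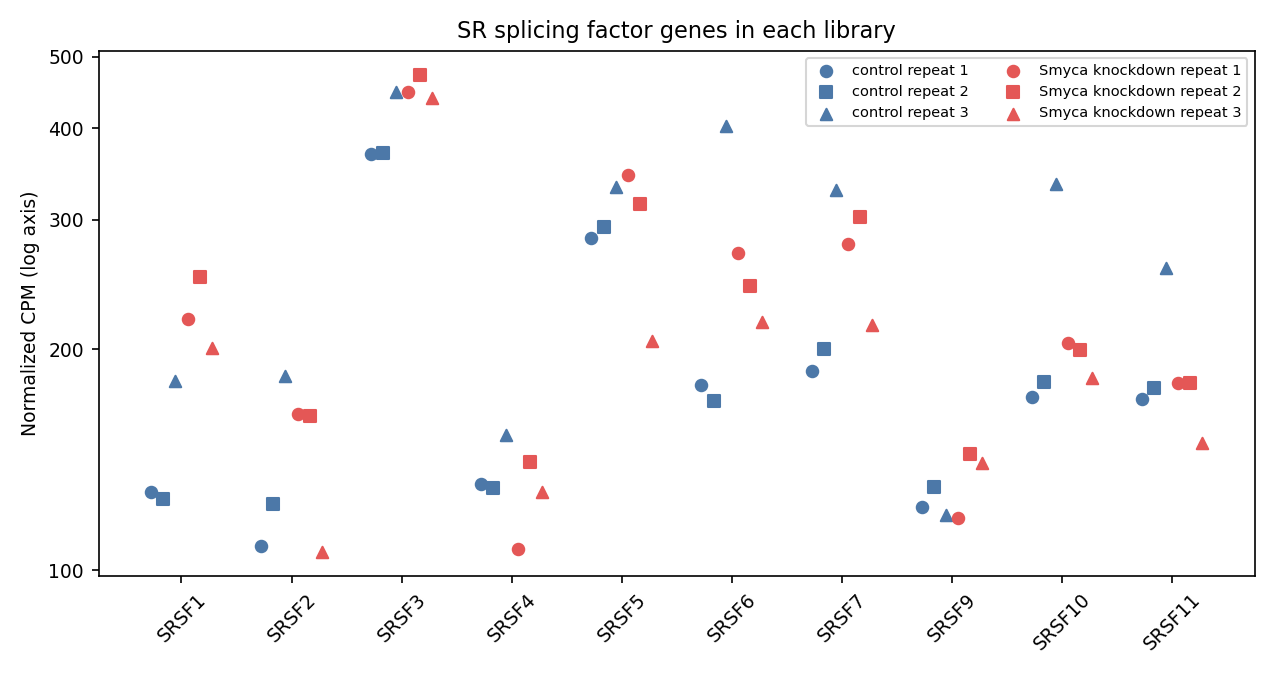
Normalized CPM of the 10 SR genes in each library, with the 3 control repeats and the 3 Smyca knockdown repeats as separate points on a log axis. SRSF1 is the gene whose 3 control points (125 to 181) all lie below its 3 knockdown points (201 to 251), and control repeat 3 is the highest point for SRSF2, SRSF4, SRSF6, SRSF7, SRSF10 and SRSF11.

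SRSF1, the founding member of the family and a known proto-oncogene, was at 128, 125 and 181 normalized CPM in the control. In the Smyca knockdown it was at 220, 251 and 201. Every knockdown library was above every control library, although control repeat 3 came close to knockdown repeat 3. The means were 145 ± 31.0 and 224 ± 25.1 (SD, n = 3), or 1.55-fold higher in the knockdown, and the log2 fold change was -0.63 ± 0.18 (SE; 95% interval -1.05 to -0.21). The adjusted p was 0.141 by the quasi-likelihood test of edgeR. An exact two-sided permutation test over the 6 libraries gave p = 0.1, the smallest it can give with 3 against 3. SRSF1 was the 1 member past the ratio part of the study's criterion, at least 1.5 or at most 0.66, which 21.2% of all genes passed. The study joins this ratio with an FDR under 0.05, and 0 members and 0.0265% of all genes passed both here. A ratio of at most 0.66 was met by 5.54% of all genes, and a ratio of at least 1.5 by 15.6% of all genes and 0 members. Leaving out control repeat 3 moved its log2 fold change to -0.83 and its adjusted p to 0.0167, where 10.9% of all genes passed, and 4.35% of all genes passed with a lower control.

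SRSF2 and SRSF3 carry a lone RNA recognition motif next to the tail. SRSF2, which marks nuclear speckles and is mutated in some myeloid neoplasms, was at 108, 123 and 184 normalized CPM in the control and 163, 162 and 106 in the knockdown. Its extremes were control repeat 3 and knockdown repeat 3, the groups overlapped, and the log2 fold change was -0.052 ± 0.25 (SE). SRSF3, the smallest protein of the family at 164 residues, was at 369, 369.5 and 448 in the control and 448, 473 and 439.8 in the knockdown. Control repeats 1 and 2 were below every knockdown library and control repeat 3 was not. Its log2 fold change was -0.20 ± 0.14, with an adjusted p of 0.479 (edgeR).

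SRSF4, SRSF5 and SRSF6 carry, like SRSF1, a further RNA recognition motif of a variant type. SRSF4, the longest of the 10 proteins at 494 residues, was at 131, 129.6 and 153 normalized CPM in the control and 107, 140.3 and 128 in the knockdown. SRSF5 was at 283, 293 and 333 in the control and 345, 315 and 205 in the knockdown, so knockdown repeats 1 and 3 bounded all other libraries. Without knockdown repeat 3 its log2 fold change was -0.13. Neither gene separated the groups, with all-library log2 fold changes of 0.14 ± 0.16 and 0.074 ± 0.21 (SE). SRSF6 was at 179, 170 and 403 normalized CPM in the control and 270.3, 244 and 218 in the Smyca knockdown. The control repeats spanned the whole knockdown range, with repeats 1 and 2 below it and repeat 3 above it. The coefficient of variation of SRSF6 was 52.8% among the control repeats, the highest of the 10 genes, and 10.8% among the knockdown repeats. The log2 fold change over all libraries was 0.038 with a 95% interval from -0.69 to 0.76. Without control repeat 3 it was -0.49, with an adjusted p of 0.0692 (edgeR). With the FPKM reads of control repeat 2 it was 0.42, with an adjusted p of 0.462 (edgeR).

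SRSF7, which adds a zinc knuckle to the RNA recognition motif and with SRSF3 links splicing to mRNA export, was at 187, 200.1 and 329 normalized CPM in the control. The knockdown values were 278, 303 and 216. Control repeats 1 and 2 were the lowest libraries and control repeat 3 the highest, and the log2 fold change was -0.15 ± 0.24 (SE). It was -0.46 without control repeat 3, with an adjusted p of 0.122 (edgeR), -0.0047 without control repeat 1 and 0.10 with the FPKM reads of control repeat 2. SRSF9, which has the same domain layout as SRSF1, was at 122, 130 and 119 in the control and 118, 144 and 140.2 in the knockdown. It was the steadiest member among the control repeats, with a coefficient of variation of 4.52%, and the 95% interval of its log2 fold change ran from -0.44 to 0.21.

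SRSF10 and SRSF11 are the more distant members. SRSF10, a splicing repressor when dephosphorylated, was at 172, 180.4 and 336 normalized CPM in the control and 204, 199.6 and 183 in the knockdown. Here too control repeat 3 was above all libraries and the other control repeats were below the knockdown. The log2 fold change was 0.23 ± 0.25 (SE) with all libraries, -0.15 without control repeat 3 and 0.47 with the FPKM reads of control repeat 2. SRSF11 was at 171, 177 and 258 in the control and 179.7, 179.7 and 149 in the knockdown, and its log2 fold change was 0.25 ± 0.19 (SE). Without control repeat 3 it was 0.034, and with the FPKM reads of control repeat 2 it was 0.43. Of the genes with an SRSF name outside the list, SRSF8 was at 58.4, 59.7 and 83.6 in the control and 96.9, 97.6 and 69.3 in the knockdown. Its groups overlapped, with an adjusted p of 0.333 (edgeR), and SRSF12 had at most 2 counts.

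**Figure D2:**
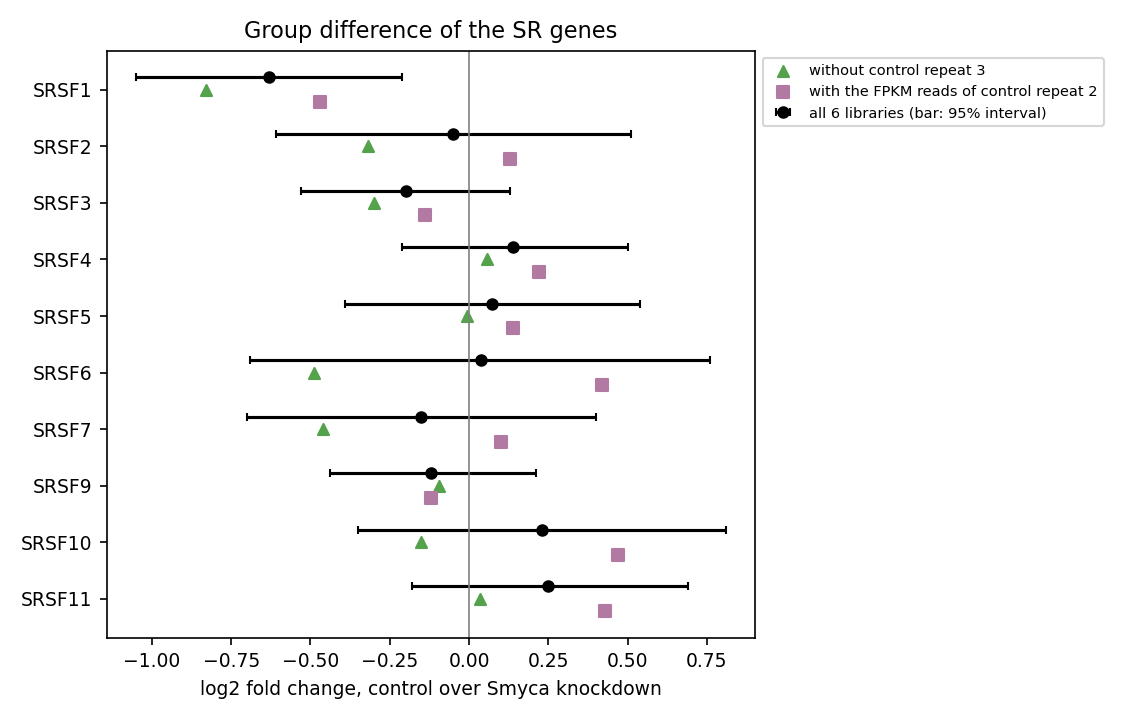
Log2 fold change of control over Smyca knockdown for each SR gene, with all 6 libraries and with 1 control library changed (control repeat 3 left out, or the reads behind the FPKM values in place of the counts of control repeat 2). Bars are 95% intervals of the fit with all libraries. The interval of SRSF1 alone lies wholly below 0, and the point of SRSF6 moves from 0.038 to -0.49 without control repeat 3.

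Control repeat 3 was the library with the highest level for 6 of the 10 members, while 22.1% of all genes were highest there. Several marker genes were lowest in the same control library. In control repeats 1, 2 and 3, CDH1 was at 300.1, 192 and 71.5 normalized CPM, HNF4A at 168, 187 and 65.4, CAV1 at 101, 73.2 and 27.9 and MUC13 at 27.6, 37.8 and 9.09, and their part in the SR levels was not tested. The level in control repeat 3 relative to the mean of control repeats 1 and 2 was 2.31 for SRSF6, 1.91 for SRSF10, 1.70 for SRSF7, 1.59 for SRSF2, 1.48 for SRSF11 and 1.42 for SRSF1. SRSF3, SRSF4 and SRSF5 lay between 1.16 and 1.21, and SRSF9 was at 0.945. The median was 1.45 over the members and 1.0 over all genes tested. More than 1.3 times both other control repeats was reached by 6 members and by 18.6% of all genes. Over control repeat 1, the ratio of control repeat 2 was between 0.952 and 1.14 for every member. With control repeat 3 left out, 5 members had no overlap between the groups, all lower in the control (SRSF1, SRSF3, SRSF6, SRSF7 and SRSF10), and 23.3% of all genes met the same condition. No overlap with a higher control was found for 0 members and 25.7% of all genes. In that setting 3 members had an unadjusted p under 0.05, against 29.6% of all genes, and SRSF1 alone passed the adjusted threshold.

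The reads recovered from the FPKM column of control repeat 2 gave another picture of that library. SRSF6 was at 388 normalized CPM by these reads and 170 by the counts, SRSF7 at 336 and 200.1, and SRSF10 at 299 and 180.4. These values lay beside control repeat 3 (403, 329 and 336) and not beside control repeat 1 (179, 187 and 172). With these reads in place of the counts, 7 members were higher in the control, where 52.5% of all genes were, and 0 passed the adjusted threshold, which 0.0658% of all genes passed. The log2 fold change of SRSF1 was -0.47 with an adjusted p of 0.2 (edgeR). Which of the columns belongs to the library labelled control repeat 2 cannot be told apart from the files, and the levels of SRSF6, SRSF7 and SRSF10 in the control rest on that choice.

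Upstream sequence is shown for SRSF1, the member without overlap, and for SRSF6 and SRSF7, which with SRSF10 were highest in control repeat 3 relative to the other control repeats. For SRSF10 the window lies inside the GENCODE gene and is not printed. The sequences come from the RefSeq promoter table of GRCh38.p14, which matched 9 of the 10 genes, SRSF2 being the exception, with 11 windows of 250 bases. Only bases outside the GENCODE gene are printed, 5′ to 3′ on the gene's strand, with the letters TGACGT in capitals where they occur. The SRSF1 stretch is chr17:58007347-58007496 on the minus strand, the SRSF6 stretch chr20:43457646-43457892 on the plus strand and the SRSF7 stretch chr2:38751495-38751744 on the minus strand.
SRSF1: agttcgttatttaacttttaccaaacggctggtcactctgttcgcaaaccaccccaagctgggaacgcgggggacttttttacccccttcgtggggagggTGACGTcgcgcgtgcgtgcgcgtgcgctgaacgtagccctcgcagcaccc
SRSF6: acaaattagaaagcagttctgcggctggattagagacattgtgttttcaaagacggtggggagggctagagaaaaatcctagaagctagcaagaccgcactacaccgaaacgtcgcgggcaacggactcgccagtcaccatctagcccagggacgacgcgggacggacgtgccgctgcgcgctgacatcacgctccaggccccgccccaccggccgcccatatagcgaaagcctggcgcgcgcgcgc
SRSF7: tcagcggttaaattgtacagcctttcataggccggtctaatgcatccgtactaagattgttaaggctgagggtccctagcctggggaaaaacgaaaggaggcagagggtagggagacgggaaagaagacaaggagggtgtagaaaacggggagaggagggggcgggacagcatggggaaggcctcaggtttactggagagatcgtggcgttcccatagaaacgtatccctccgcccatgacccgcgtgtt

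TGACGT, the core of the cyclic AMP response element TGACGTCA, was searched on both strands and stood in a window of SRSF1, SRSF3 and SRSF5. It occurred in 7.1% of all 35116 RefSeq windows of this length. CACGTG, the E-box that MYC binds, was in 0 of the 11 windows and in 6.34% of all, and CCAAT was in 1 window (SRSF3) and in 32.0% of all. The full element TGACGTCA, which contains TGACGT, and the letters TGACTCA and GTCTAGAC were in 0 of the 11 windows, with 1.65%, 4.2% and 0.182% of all windows. Such a match is a description of the letters and not a bound site. MYC itself was at 658, 499 and 746 normalized CPM in the control and 755, 685 and 524 in the knockdown, and its groups overlapped.

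Per base of gene length, the 10 genes lay within 1 order of magnitude of each other. Levels per length are given as RPKM, reads scaled by the library total and by the gene length behind the deposited FPKM values. Since levels may differ between the groups, the order is given in each. In the control, SRSF5 (247 ± 27.6 RPKM, SD, n = 3) and SRSF3 (233 ± 31.5) were highest. SRSF7 (160.4), SRSF10 (151), SRSF11 (132), SRSF1 (115), SRSF2 (114) and SRSF9 (114) followed, and SRSF6 (85.8) and SRSF4 (75.8) were lowest. In the Smyca knockdown, SRSF3 (255 ± 10.3 RPKM) and SRSF5 (224 ± 61.1) led, followed by SRSF1 (169.8), SRSF7 (169.6), SRSF10 (122), SRSF9 (118), SRSF2 (113) and SRSF11 (106), with SRSF6 (79.4) and SRSF4 (65.3) again lowest. SRSF1 thus stood 6th in the control and 3rd in the knockdown, and SRSF11 5th and 8th. SRSF5 and SRSF3 differed by less than the SD of SRSF5 in both groups, and SRSF3 was above SRSF5 in 2 of the 6 libraries. In all 6 libraries SRSF5 was above SRSF7 and SRSF2 above SRSF6. The order depends on the length used. The length behind the FPKM values was 1287 bases for SRSF1 and 1562 for SRSF10, whereas the canonical GENCODE transcripts hold 5343 and 7656 exon bases, and with these lengths 1 of the 10 genes kept its place in the order over all 6 libraries.

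The make-up of the family within a library was compared next. As a share of the summed RPKM of the 10 genes, SRSF1 took 8.27%, 7.83% and 8.11% in the control and 11.3%, 12.4% and 12.2% in the Smyca knockdown. The means were 8.07% ± 0.222 and 12% ± 0.601 (SD, n = 3), and control repeat 3 lay with the other control repeats. SRSF11 took 9.05%, 9.08% and 9.51% in the control and 7.57%, 7.28% and 7.44% in the knockdown, with means of 9.22% ± 0.257 and 7.43% ± 0.145. The shares of the other 8 genes overlapped between the groups. Since SRSF1 and SRSF11 are described for not overlapping, no test is given for them. No background over all genes was computed for such shares. For levels, a different measure, 24.8% of all genes had no overlap, and SRSF1 was already the member without overlap in levels. A change in the make-up of the family is therefore not read from these shares. With the reads behind the FPKM values of control repeat 2, its shares were 8.07% for SRSF1 and 9.67% for SRSF11, inside or beside the control range and outside the knockdown range. Shares of 1 total are tied to each other, so a higher share of 1 gene lowers the rest.

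**Figure D3:**
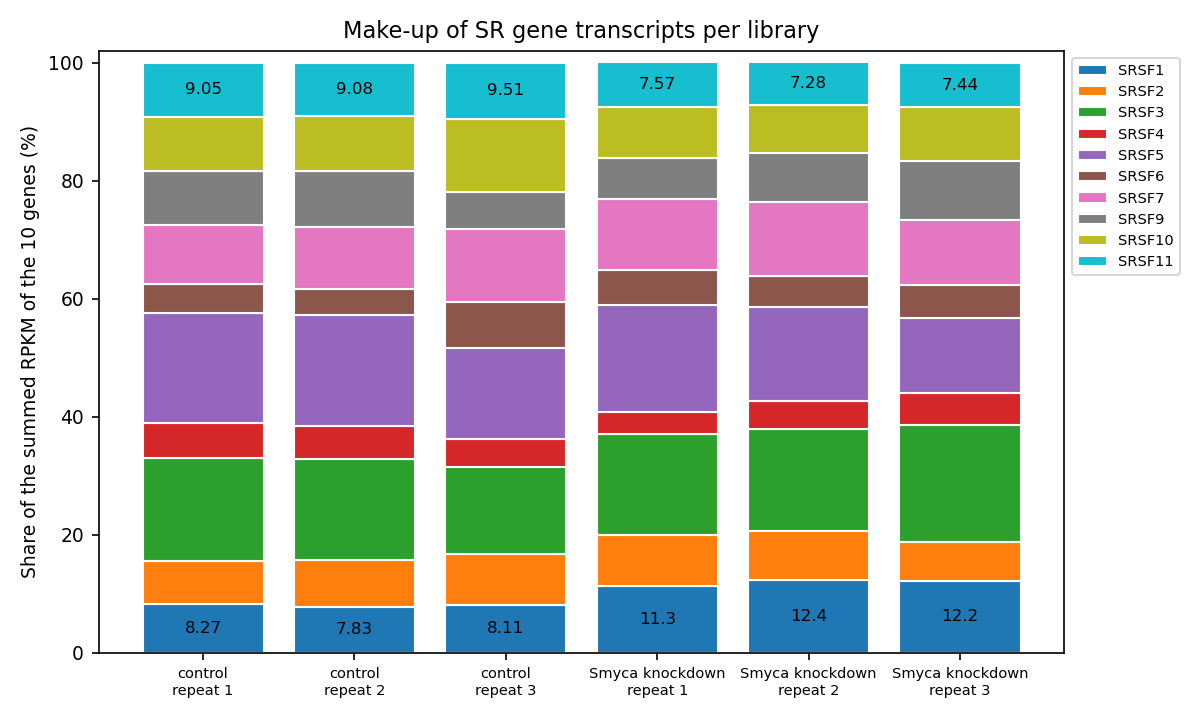
Share of each SR gene in the summed RPKM of the 10 genes, in percent, as stacked bars with 1 bar per library. The control shares of SRSF1 (7.83% to 8.27%) lie below the knockdown shares (11.3% to 12.4%), those of SRSF11 (9.05% to 9.51%) lie above (7.28% to 7.57%), and those of the other 8 genes overlap.

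Ratios within a library need no scaling between libraries. The ratio of SRSF1 to SRSF11, in normalized CPM, was 0.749, 0.708 and 0.70 in the control and 1.22, 1.40 and 1.35 in the Smyca knockdown. Over the 9 other members, the ratio of SRSF1 to the gene had no overlap between the groups for 8, always lower in the control, and the exception was SRSF9. Taken over all other 15074 genes tested, the ratio of SRSF1 to the gene had no overlap in that direction for 45.3%, and no overlap in the opposite direction for 0.318%, which held for 0 members. In the ratio of SRSF1 to SRSF6, control repeat 3 lay below its group, at 0.448 against 0.718 and 0.738 in the other control repeats and 0.814, 1.03 and 0.926 in the knockdown.

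**Figure D4:**
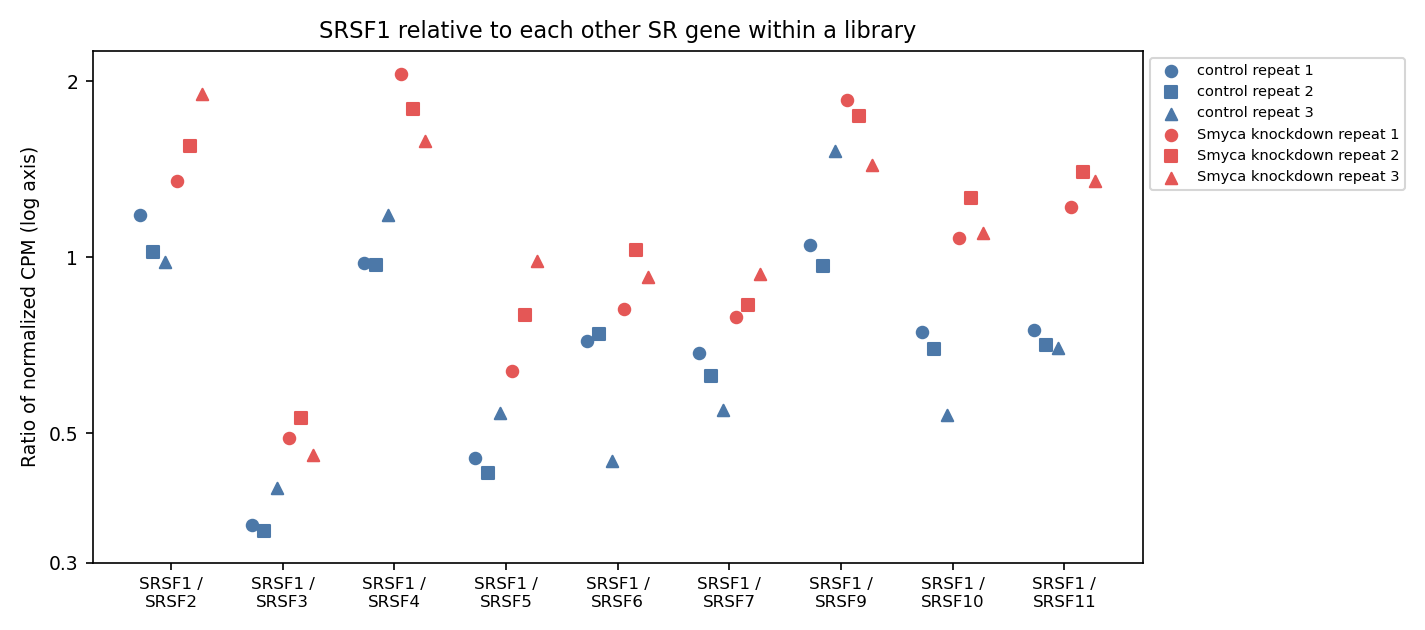
Ratio of SRSF1 to each of the other 9 SR genes within a library, in normalized CPM on a log axis, with 1 point per library. Control points lie below knockdown points for 8 genes, and for SRSF9 control repeat 3 (1.52) lies above knockdown repeat 3 (1.44).

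SR proteins act with kinases, related splicing factors and competitors, and 6 lists of such genes with 95 members were measured in the same fit. None of the 95 genes passed the adjusted threshold. DESeq2 called 11 of them, where it called 6.31% of all genes. Leaving out control repeat 3 also gave 11 calls, where 10.9% of all genes were called, so this count is close to the share over all genes. The hnRNP proteins, which often oppose SR proteins at exons, were lower in the control for 23 of 24 genes, with a median log2 fold change of -0.37. For 15 of the 24 the groups did not overlap and the control was lower, against 12.5% of all genes. HNRNPA0 was at 316, 342 and 362 normalized CPM in the control and 517, 626 and 513 in the knockdown, with a log2 fold change of -0.70 ± 0.15 (SE) and an adjusted p of 0.111 (edgeR). PTBP1, the polypyrimidine tract-binding repressor, was at 1161, 1080.3 and 945 in the control and 1560, 1868 and 1455 in the knockdown, and HNRNPUL1 had a log2 fold change of -0.57 ± 0.15. Among the control repeats, repeat 3 was the highest for HNRNPA0 and the lowest for PTBP1 and HNRNPUL1 (621, 643 and 519.8 in control repeats 1, 2 and 3). Without control repeat 3, 21 of the 24 hnRNP genes were lower in the control. In that setting 6 passed the adjusted threshold, all with a lower control, against 4.35% of all genes.

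The factors of nonsense-mediated decay, the pathway that removes poison-exon transcripts, were lower in the control for 9 of 10 genes, with a median of -0.34. For 7 of them the groups did not overlap and the control was lower, against 12.5% of all genes. UPF1, the central helicase, was at 217, 249 and 219.6 normalized CPM in the control and 333, 374 and 355 in the knockdown. SMG5, which binds phosphorylated UPF1, had a log2 fold change of -0.41 ± 0.14 (SE). All 10 decay factors were lower in the control without control repeat 3, and 8 were with the FPKM reads of control repeat 2. Of the proteins that recognize the 3′ splice site or belong to the U1 or U2 snRNP, 18 of 24 were lower in the control, with a median of -0.20. In that list 5 genes had no overlap with a lower control, against 12.5% of all genes, and 1 with a higher control, against 12.4%. SF3B3 had a log2 fold change of -0.67 ± 0.16, U2AF2, the large subunit of the polypyrimidine tract reader, of -0.59 ± 0.18 and SNRPE of -0.48 ± 0.18. The gene with a higher control was U2AF1, the small subunit of the same reader, with a log2 fold change of 0.62 ± 0.36 (SE) and an adjusted p of 0.386 (edgeR). It was named after its value was seen.

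The kinases, phosphatases and importer of SR proteins were divided, with 4 of 10 genes lower in the control and a median of 0.078. PPP1CA, a phosphatase catalytic subunit, had a log2 fold change of -0.55 ± 0.16 (SE) and SRPK1, the cytoplasmic SR kinase, of -0.37 ± 0.15. CLK1, the nuclear SR kinase, was at 60.5, 48.8 and 69.5 normalized CPM in the control and 52.6, 44.8 and 27.5 in the knockdown, and its groups overlapped. Among the SR-related proteins and TRA2 genes, 13 of 19 were lower in the control, with a median of -0.11. LUC7L2 and LUC7L3, related proteins of the U1 snRNP, lay on opposite sides. LUC7L2 was at 74.2, 75.1 and 69.7 in the control and 100.2, 128 and 103 in the knockdown, whereas LUC7L3 was at 269, 299.5 and 305 in the control and 241, 235 and 148 in the knockdown. SON, a large scaffold of nuclear speckles, had a log2 fold change of -0.44 ± 0.13.

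The mRNA export adaptors and receptor were lower in the control for 5 of 8 genes, with a median of -0.13. DDX39B, the helicase of the export complex, was at 131, 99.4 and 182 normalized CPM in the control and 95.8, 83.7 and 68.9 in the knockdown. Its log2 fold change was 0.73 ± 0.23 (SE) with an adjusted p of 0.157 (edgeR). THOC1 and THOC5, subunits of the THO complex, had log2 fold changes of 0.38 ± 0.18 and -0.26 ± 0.15. The members and the lists were compared only by their counts and medians, and whether the SR genes differ from the hnRNP or decay genes was not tested.

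Some member counts share their position with other genes. SRSF2 overlaps MFSD11 on the opposite strand, which had 159 to 321 counts beside the 1603 to 2878 of SRSF2. SRSF9 overlaps DYNLL1 and GATC on the opposite strand, with 1863 to 3390 and 171 to 274 counts, and the noncoding gene NRAV on its own strand, with 78 to 137 counts. The libraries were strand-specific, but whether the counting used the strand is not given in the sources used here, so reads of these pairs may be mixed. The 13 SRSF pseudogenes in the files had at most 3 counts in any library.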

How the data were processed

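RNA of 3 control and 3 Smyca knockdown libraries of cells labelled MDA-MB-231 was sequenced after rRNA removal and strand-specific, paired-end library preparation. The authors mapped reads to GRCh38 with TopHat2 2.0.12 (version also in the submitters' processing notes) and counted them with HTSeq; the annotation release and strand setting are not given in the sources used here. The authors deposited raw read counts of 58302 genes per library, and beside them an FPKM value per gene, from which gene lengths and the reads behind the FPKM of control repeat 2 (16759323 reads, 97.6% of values whole within 0.1) were computed. The FPKM values entered no main test.

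Symbols came from GENCODE release 44 (57532 genes matched). Counts were tested in R 4.3.3 with edgeR 4.0.16 (TMM, filterByExpr, quasi-likelihood test, all 6 libraries, no covariates), with Benjamini-Hochberg adjustment over 15075 genes. A call was an adjusted p under 0.05. The DESeq of the study was not used here. Exact permutation tests were run with scipy 1.17.1 in Python 3.11.15. Intervals are 95%.

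The members and the lists were chosen with earlier results of these data known. Named were all members, SRSF8, SRSF12, MIR23AHG, MYC, genes overlapping members, and of each related list the 3 genes with the smallest p, of which 1 gene is not reported here; markers and any other gene were named after their values were seen. The alternatives were DESeq2 1.42.0, RLE size factors, total counts, filters of 10 counts in every library or of 1 count, the FPKM reads of control repeat 2, the repeat number as a block and each repeat left out. The fitting code was tested on simulated data.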

Additional observations from a re-analysis of the deposited data

Results flagged for a closer look

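A signal outside the main measurement was seen for 3 SR genes in control repeat 2. Relative to its count column, the reads behind its FPKM column were 2.28 times as high for SRSF6, 1.68 times for SRSF7 and 1.66 times for SRSF10, in normalized CPM. For SRSF2, SRSF11 and SRSF1 the ratios were 1.44, 1.44 and 1.39, and the other 4 genes lay between 0.98 and 1.16. Relative to control repeat 3, the same reads were 0.963 times as high for SRSF6, 1.02 times for SRSF7 and 0.891 times for SRSF10. In the other 5 libraries the FPKM values follow the counts. Which column belongs to control repeat 2 was not tested.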

How the results depend on the processing

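Of 130 refits of single SR genes under 13 alternatives, 14 turned the direction of a gene that had not passed the threshold. SRSF2 went to 0.13 with the FPKM reads of control repeat 2, 0.021 with total counts, and 0.042, 0.038, 0.10 and 0.022 without Smyca repeat 1 or 2 or control repeat 1 or 2. SRSF6 went to -0.001 with no low-count filter, -0.086 with the block, -0.047 without Smyca repeat 3 and -0.49 without control repeat 3. SRSF5 went to -0.13 without Smyca repeat 3 and -0.0056 without control repeat 3, SRSF7 to 0.10 with the FPKM reads, and SRSF10 to -0.15 without control repeat 3. Without 1 repeat the ranges were -0.32 to 0.10 for SRSF2, -0.13 to 0.21 for SRSF5, -0.49 to 0.25 for SRSF6 and -0.15 to 0.40 for SRSF10. In the same fits SRSF3, SRSF4, SRSF7, SRSF9 and SRSF11 kept their direction. Their ranges were -0.3 to -0.15, 0.035 to 0.23, -0.46 to -0.0047, -0.21 to -0.066 and 0.034 to 0.36, in that order. SRSF1 stayed lower in the control in all 13 (-0.83 to -0.47, adjusted p 0.0167 to 0.443). It was the 1 SR gene called with DESeq2 (-0.65, adjusted p 0.0382), with no low-count filter (-0.67, 0.0428) and without control repeat 3 (-0.83, 0.0167), so 0 to 1 SR genes were called when 1 repeat was left out.

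Leaving out 1 repeat gave 2 to 6 SR genes higher in the control (5 with all libraries), with 2 without control repeat 3 and 3 without Smyca repeat 3. Over all genes, 4 were called, against 951 with DESeq2, 916 with no low-count filter, 10 with the FPKM reads, 8 with total counts and 0 to 1691 without 1 repeat, the highest without control repeat 3. Related-list calls were 0, against 11 with DESeq2, 6 with no filter and 0 to 11 without 1 repeat, 11 of them without control repeat 3. The cause was not tested. With canonical exon lengths, an alternative chosen after seeing the data, 1 of 10 genes kept its place in the order per length.

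Same-numbered control and knockdown repeats deviated from their group means with correlations of 0.054, 0.094 and 0.021. Pairs with different numbers ran from -0.142 to 0.055. With 3 repeats per group, these values cannot settle whether same-numbered repeats shared a culture or batch. With the repeat number as a block, SRSF1 was at -0.65 with an adjusted p of 0.23 (edgeR), 0 genes were called and 2568 had an unadjusted p under 0.05. The spread between 3 repeats, not depth, limits these results.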

Other observations

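ESRP1 and ESRP2, splicing regulators specific to epithelial cells, were looked at after their values among the marker genes had been seen. ESRP2 was at 204, 180.2 and 249.6 normalized CPM in the control and 310, 386 and 317 in the Smyca knockdown. Its groups did not overlap, as for 12.5% of all genes tested with a lower control, and the log2 fold change of control over knockdown was -0.68 ± 0.17 (SE, n = 3 and 3) with an adjusted p of 0.125 by edgeR. ESRP1 was at 139, 128 and 134 in the control and 188, 148 and 141 in the knockdown, also without overlap, with a log2 fold change of -0.25 ± 0.16 and an adjusted p of 0.419 (edgeR). Control repeat 3 was the highest control library for ESRP2 and not for ESRP1. Both come from a list of 10 epithelial junction genes in which 6 were higher and 4 lower in the control, with a median log2 fold change of 0.01, and 0 passed the adjusted threshold. In that list CLDN4 was at 265, 208 and 229.5 normalized CPM in the control and 144, 160.2 and 184 in the knockdown, and CDH1 was at 300.1, 192 and 71.5 in the control and 93.8, 77.6 and 172 in the knockdown.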
